A study of Mus musculus with 28 samples.

Results

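The EGF receptor system was followed through 9 genes: the ligand genes Ereg, Epgn, Tgfa, Btc, Hbegf and Egf and the receptor genes Egfr, Erbb2 and Erbb3. They are 9 of 17097 genes that had a probe set annotated to a single symbol. Where a gene had several probe sets, the one brightest on average over the 28 arrays represented it, and the other probe sets of the same gene served as a check. The arrays carried RNA of cells sorted by flow cytometry from the mammary gland or mammary tumours of female mice, which had received 3 injections of 5 mg tamoxifen from an age of 4 to 5 weeks. All mice carried a tamoxifen-inducible Cre, either K8CREERT2, which acts in luminal cells, or K5CREERT2, which acts in basal cells, together with the reporter RosaYFP. PIK3CA-H1047R, an active mutant of the catalytic subunit of PI3-kinase, was switched on by the same Cre in the groups called PIK.

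The tumour groups were K8-PIK-p53 tumours, from K8CREERT2/PIK3CA-H1047R/RosaYFP mice that were also p53flox/flox (2 arrays), K5-PIK tumours (3 arrays) and K8-PIK tumours (7 arrays), and the labels give no time or YFP gate for them. Cells of PIK mice without a tumour label were YFP+ basal and luminal cells of K8-PIK mice 8 weeks after tamoxifen and luminal and basal cells of K5-PIK mice 10 months after tamoxifen, with 2 arrays each. The YFP groups, without the oncogene, were basal cells of K5CREERT2/RosaYFP mice and luminal cells of K8CREERT2/RosaYFP mice at 10 months and at 8 weeks, again with 2 arrays each. K8-PIK basal cells and K5-PIK luminal cells were therefore sorted in the gate opposite to the lineage of their Cre. Their YFP counterparts of the same gate came from the other Cre, so oncogene and driver cannot be told apart in those comparisons. The labels do not say whether the arrays of a group came from separate animals, so p-values measure the spread between arrays, which may be technical.

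EGF family ligands are made as membrane proteins and are released by ADAM proteases. EGFR binds epiregulin (Ereg), epigen (Epgn), TGF-alpha (Tgfa), betacellulin (Btc), HB-EGF (Hbegf) and EGF (Egf). It signals as a dimer with itself or with ERBB2, which has no known ligand, or ERBB3, which binds neuregulins and activates PI3-kinase. In the mammary gland, EGFR signalling is best known for its part in the growth of ducts at puberty, and ERBB2 is amplified in a subset of human breast cancers.

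Epgn, Ereg and Btc all lie on mouse chromosome 5, yet Ereg was higher, and Epgn and Btc were lower, in YFP basal than in YFP luminal cells. The 250 bases before the start of Epgn and of Btc are printed here because both genes were lower in YFP basal than in YFP luminal cells but differed in K8-PIK basal cells, where Epgn was high and Btc was at background, and those before Erbb2 because this receptor gene followed Btc closely across the sorted cells. RefSeq tables on GRCm38.p6 held such a window for 6 of the 9 genes. Epgn is at chr5:91027267-91027516 on the plus strand, Btc at chr5:91402995-91403244 on the minus strand and Erbb2 at chr11:98412234-98412483 on the plus strand.
Epgn: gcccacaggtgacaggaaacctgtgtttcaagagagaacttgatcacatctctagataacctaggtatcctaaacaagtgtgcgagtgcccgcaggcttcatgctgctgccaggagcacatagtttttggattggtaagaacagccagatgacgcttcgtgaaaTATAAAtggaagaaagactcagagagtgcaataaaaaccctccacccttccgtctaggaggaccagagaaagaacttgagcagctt
Btc: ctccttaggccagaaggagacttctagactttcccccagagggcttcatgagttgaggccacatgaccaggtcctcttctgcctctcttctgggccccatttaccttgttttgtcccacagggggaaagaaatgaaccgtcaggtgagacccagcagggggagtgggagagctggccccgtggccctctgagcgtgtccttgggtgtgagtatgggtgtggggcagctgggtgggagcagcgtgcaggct
Erbb2: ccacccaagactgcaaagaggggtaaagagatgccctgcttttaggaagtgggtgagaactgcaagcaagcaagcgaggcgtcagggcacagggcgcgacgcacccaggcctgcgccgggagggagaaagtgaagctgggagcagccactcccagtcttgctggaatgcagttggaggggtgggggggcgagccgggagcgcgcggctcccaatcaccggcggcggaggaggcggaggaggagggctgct
Capitals mark the 1 match among these 3 windows to the letters searched on both strands. It is to the TATA box letters TATAAA, from 86 to 81 bases before the start of Epgn. Whether these letters act as a TATA box there was not tested. TATAAA was in 12.4% of 32851 RefSeq windows of this length, the AP-1 letters TGANTCA in 6.75% and the GC box GGGCGG in 32.7%. None of the letters searched overlapped another in the windows shown.

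The deposited values are log2 intensities, and a gene counted as above background on an array when it exceeded that array's 40th percentile, which was 3.89 to 3.99. The gates matched their labels by markers. The mean of 8 basal markers was 9.91 to 10.54 on the 8 basal-gate arrays, against 5.91 to 7.67 on the 8 luminal-gate arrays, and the mean of 11 luminal markers was 6.65 to 8.21 against 9.22 to 10.06. Markers of other cells were present. At least 7 of 10 endothelial markers were above background on every array, and their mean was 6.16 to 7.38 in YFP basal cells, 5.85 to 5.93 in K8-PIK basal cells, 4.53 to 5.52 in K5-PIK basal cells and 4.91 to 5.88 in YFP luminal cells.

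Among the ligands, Ereg had a pattern close to on or off. It was above background on 8 of 28 arrays. It measured 8.74 and 7.40 in K8-PIK-p53 tumours, 8.17 and 8.13 in K8-PIK basal cells, 4.55 and 2.71 in K5-PIK basal cells, 6.94 and 7.16 in YFP basal cells at 10 months, and 5.71 and 3.36 in YFP basal cells at 8 weeks. All luminal-gate arrays lay between 2.57 and 3.09, and the K5-PIK tumours at 2.65, 2.65 and 3.38, and the K8-PIK tumours from 2.55 through a median of 3.16 to 3.68, all below background. The highest 2 group means, of K8-PIK basal cells and K8-PIK-p53 tumours, did not separate from each other, and YFP basal cells at 10 months came next, overlapping with neither the group above nor the group below.

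Epgn was above background on all 28 arrays and spanned 4.74 between its highest and lowest group means. It measured 7.84 and 8.63 in K8-PIK basal cells, 8.01 and 5.93 in K8-PIK luminal cells, 4.20 and 4.77 in K5-PIK luminal cells and 5.78 and 4.85 in K5-PIK basal cells. In the YFP groups it measured 4.83 and 5.09 in basal cells at 10 months and 6.16 and 5.31 at 8 weeks, against 9.04 and 9.42 in luminal cells at 10 months and 8.44 and 7.46 at 8 weeks. Normal basal cells thus stood below normal luminal cells at both times, while K5-PIK luminal cells were the lowest group of all. Tumours were intermediate, at 8.20 and 7.44 in K8-PIK-p53 tumours, at 5.02, 6.62 and 6.46 in K5-PIK tumours, and from 4.53 through a median of 5.99 to 7.35 in K8-PIK tumours.

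Btc was above background on 21 of 28 arrays. It measured 5.87 and 5.67 in K8-PIK luminal cells and 4.45 and 4.88 in K5-PIK luminal cells, against 5.96 and 6.00 in YFP luminal cells at 10 months and 7.19 and 6.76 at 8 weeks. Basal-gate arrays lay between 3.32 and 4.24 in every genotype, so that every basal-gate array was below every luminal-gate array. Tumours lay at 5.46 and 4.55 in the K8-PIK-p53 group, at 4.74, 5.39 and 5.31 in the K5-PIK group and from 4.39 through a median of 5.31 to 5.98 in the K8-PIK group.

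Tgfa was above background on all 28 arrays and was highest in K8-PIK basal cells, at 8.65 and 9.26. It measured 8.83 and 8.43 in K8-PIK luminal cells, 7.18 and 6.39 in K5-PIK luminal cells and 8.10 and 6.76 in K5-PIK basal cells. YFP basal cells had 8.35 and 8.81 at 10 months and 9.20 and 8.20 at 8 weeks, and YFP luminal cells 7.20 and 7.17 at 10 months and 8.13 and 7.77 at 8 weeks. The lowest group mean was that of K8-PIK-p53 tumours, at 6.94 and 6.31. K5-PIK tumours had 6.26, 7.50 and 6.26, and K8-PIK tumours ran from 5.73 through a median of 6.75 to 8.23.

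Hbegf and Egf varied little. Hbegf lay between 9.91 and 11.02 on all arrays, with group means 0.64 apart at most, a span at the 20.4th percentile of the genes tested, whereas the span of Ereg was at the 99.8th. It passed the test in none of the comparisons. Egf lay between 3.14 and 3.96, was above background on 1 array and was not tested.

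Among the receptors, Erbb3 had the widest span, 4.02. It measured 6.33 and 7.53 in K8-PIK basal cells against 9.13 and 9.36 in K8-PIK luminal cells, and 8.45 and 9.42 in K5-PIK luminal cells against 6.18 and 5.96 in K5-PIK basal cells. YFP basal cells had 5.67 and 6.53 at 10 months and 7.50 and 7.79 at 8 weeks, against 8.98 and 9.20 in YFP luminal cells at 10 months and 10.21 and 9.97 at 8 weeks. Basal-gate arrays were below luminal-gate arrays without overlap. K8-PIK-p53 tumours were at 7.26 and 7.54, below the K5-PIK tumours at 9.21, 9.62 and 9.57, and K8-PIK tumours ran from 6.66 through a median of 8.88 to 9.54.

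Egfr moved the other way within the YFP groups. It measured 8.73 and 8.87 in YFP basal cells at 10 months and 8.68 and 9.03 at 8 weeks, against 8.03 and 7.67 in YFP luminal cells at 10 months and 7.91 and 7.63 at 8 weeks. It was 9.0 and 8.88 in K8-PIK basal cells, 8.92 and 8.98 in K8-PIK luminal cells, 8.72 and 8.06 in K5-PIK luminal cells and 9.37 and 9.24 in K5-PIK basal cells, the highest group. Tumours lay at 7.84 and 8.00 in the K8-PIK-p53 group, 7.97, 8.11 and 7.80 in the K5-PIK group and 7.64 through a median of 8.52 to 8.98 in the K8-PIK group.

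Erbb2 was 6.02 and 6.23 in K8-PIK basal cells against 7.13 and 6.87 in K8-PIK luminal cells, and 6.24 and 6.79 in K5-PIK luminal cells against 5.67 and 5.39 in K5-PIK basal cells. In YFP basal cells Erbb2 was 6.33 and 6.10 at 10 months and 5.95 and 6.26 at 8 weeks, against 6.34 and 6.55 in YFP luminal cells at 10 months and 7.42 and 7.15 at 8 weeks. No tumour stood above the range of the sorted cells for Erbb2, as the K8-PIK-p53 tumours had 6.02 and 6.11, the K5-PIK tumours 6.33, 6.58 and 6.66 and the K8-PIK tumours 5.49 to 7.09 with a median of 6.62.

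**Figure D1:**
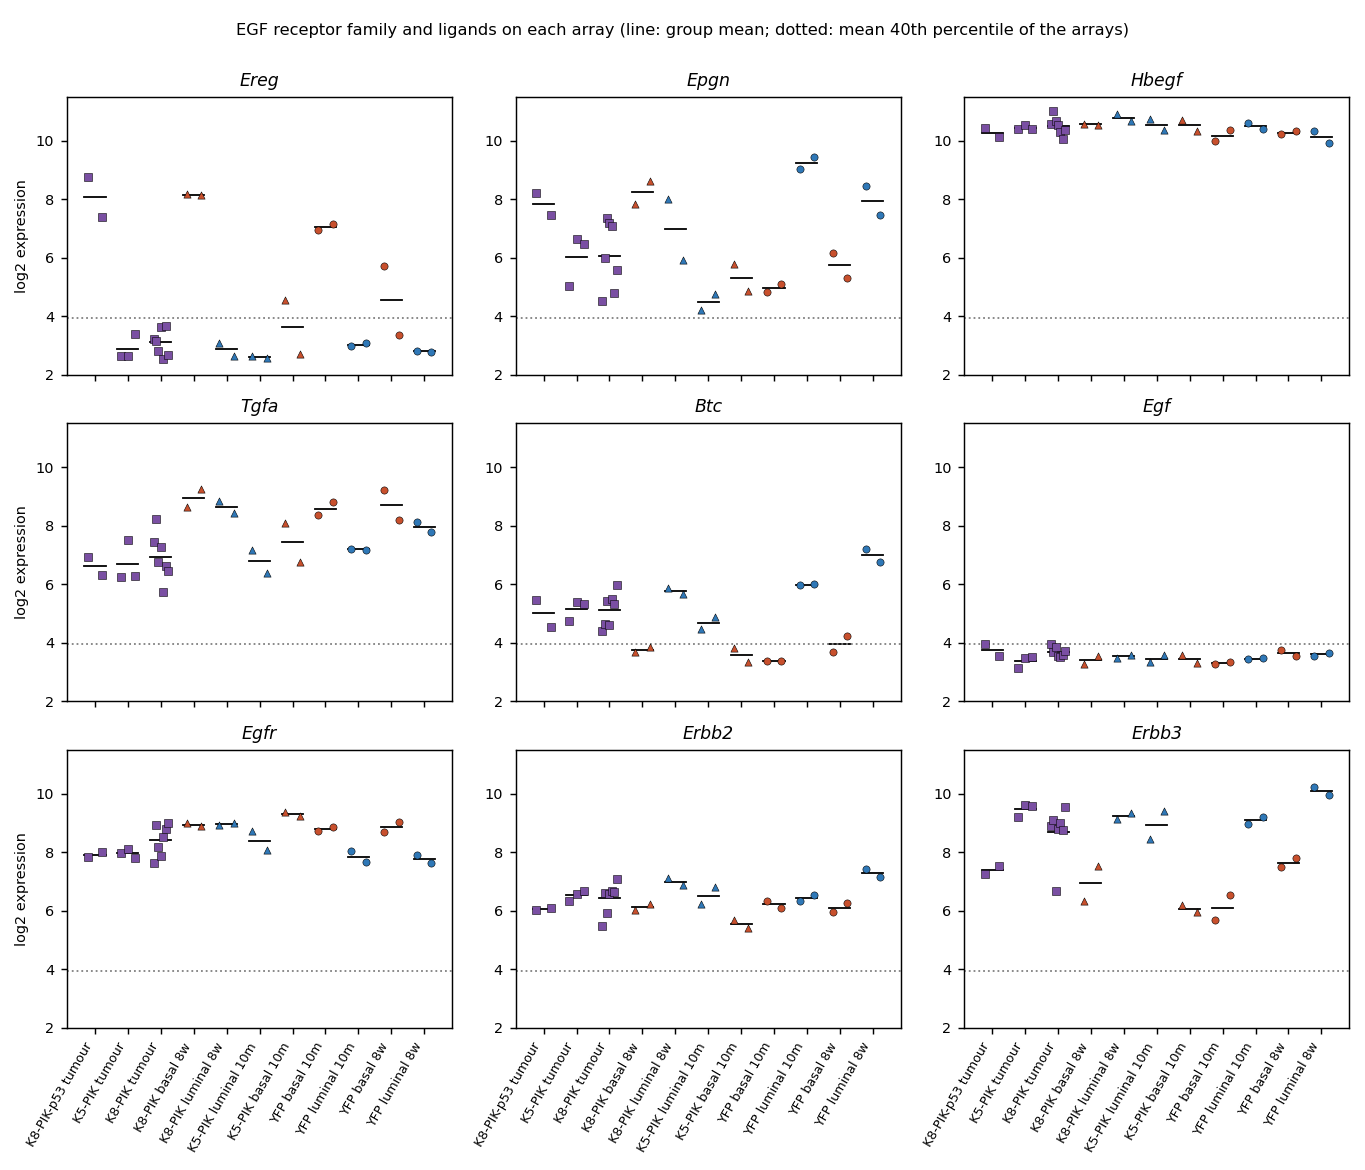
Log2 expression (vertical axis) of the 9 genes on each of 28 arrays, by group; points are arrays, horizontal bars group means, squares tumours, triangles PIK cells and circles YFP cells, with basal gates in orange, luminal gates in blue and tumours in purple. Ereg stands above the dotted line, the mean 40th percentile of the arrays, on 8 arrays, while Hbegf lies between 9.91 and 11.02 throughout.

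The basal and luminal gates of YFP mice were compared first, to describe the system without the oncogene. YFP basal cells came from K5CREERT2 mice and YFP luminal cells from K8CREERT2 mice. Gate and driver therefore cannot be told apart wherever these groups are compared. At 8 weeks, 6 of the 8 genes tested differed in basal cells: Egfr and Ereg were higher and Btc, Erbb3, Epgn and Erbb2 were lower. Here and below, differences are on the log2 scale with their SE from limma, and p-values are adjusted over all genes tested. Egfr was higher by 1.08 ± 0.22 (adjusted p = 0.0033). Btc was lower by a difference of -3.01 ± 0.23 (adjusted p = 6.02e-06), Erbb3 by -2.45 ± 0.39 (adjusted p = 0.000754), Epgn by -2.21 ± 0.58 (adjusted p = 0.0129) and Erbb2 by -1.18 ± 0.22 (adjusted p = 0.00182). Ereg was higher by 1.74 ± 0.62 with an adjusted p of 0.04996. Its fold has no firm bound, since both luminal arrays and YFP basal replicate 2 were below background. The Ereg difference rested on 1 array, since without YFP basal replicate 1 it was 0.56 and missed the threshold. It also missed the threshold without either YFP luminal array (1.75 and 1.73), or with only these groups in the fit (adjusted p = 0.106). Epgn missed it without YFP luminal replicate 1 (-1.72, adjusted p = 0.116) or YFP basal replicate 2 (-1.79, adjusted p = 0.0852). Of all 13150 genes, 10.4% were called higher and 19.9% lower in this comparison, and the median difference was -0.52 over the 8 genes and -0.09 over all genes.

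At 10 months the same comparison gave 6 calls of 8, with Ereg, Tgfa and Egfr higher and Epgn, Erbb3 and Btc lower in basal cells, against 17.6% of all genes called higher and 25.8% lower. Ereg was higher by 4.03 ± 0.62 (adjusted p = 0.000309), and as it was below background on both luminal arrays, the fold was at least 8.64, counting the luminal arrays at their 40th percentile. Epgn had a difference of -4.27 ± 0.58 (adjusted p = 0.000126), a 19.3-fold lower level. Ereg and Epgn thus differed in opposite directions, and both calls held with each of the 4 arrays left out. The median difference was -0.28 over the 8 genes and -0.12 over all genes. Tgfa was higher by 1.39 ± 0.43 (adjusted p = 0.0201) and Egfr by 0.95 ± 0.22 (adjusted p = 0.0043), whereas Erbb3 had a difference of -2.99 ± 0.39 (adjusted p = 9.57e-05) and Btc one of -2.60 ± 0.23 (adjusted p = 6.25e-06), at least 4.05-fold lower, being at or below background on both basal arrays. Erbb2, with -0.23 ± 0.22 (adjusted p = 0.419), and Hbegf, with -0.33 ± 0.21 (adjusted p = 0.231), did not pass. The Tgfa call was lost without either luminal array (1.41 and 1.38, adjusted p = 0.0746 and 0.0851) or without basal replicate 2 (1.17, adjusted p = 0.115), and the Egfr call without luminal replicate 2 (0.77, adjusted p = 0.0536). With the endothelial marker mean as a covariate, Egfr at both times (0.85, adjusted p = 0.101, at 8 weeks and 0.72, adjusted p = 0.105, at 10 months), Tgfa at 10 months (1.0, adjusted p = 0.248) and Epgn and Ereg at 8 weeks (-2.32 and 1.68, adjusted p = 0.102 and 0.258) were not called. In sorted bulk RNA, fewer cells of a type and less RNA per cell cannot be told apart.

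Age alone gave no call among the 8 genes in either gate. In YFP luminal cells the largest age differences of 10 months minus 8 weeks were 1.28 ± 0.58 for Epgn (limma, adjusted p = 0.524), -1.01 ± 0.39 for Erbb3 (0.455) and -0.997 ± 0.23 for Btc (0.157), against 0.0304% of all genes called higher and 0.0304% lower. In YFP basal cells Ereg differed by 2.51 ± 0.62 (adjusted p = 0.0621) and Erbb3 by -1.55 ± 0.39 (adjusted p = 0.0671), against 0.875% called higher and 0.395% lower. Ereg passed without YFP basal replicate 1 of 8 weeks (3.69, adjusted p = 0.0216), and scaling by quantiles brought in Erbb3 (adjusted p = 0.049). No basal-minus-luminal gap of the 8 genes was called different between ages. Of all genes, 0.0228% had a called positive and 0.0304% a called negative difference. Ages in both gates share the YFP arrays used in the lineage comparisons.

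**Figure D2:**
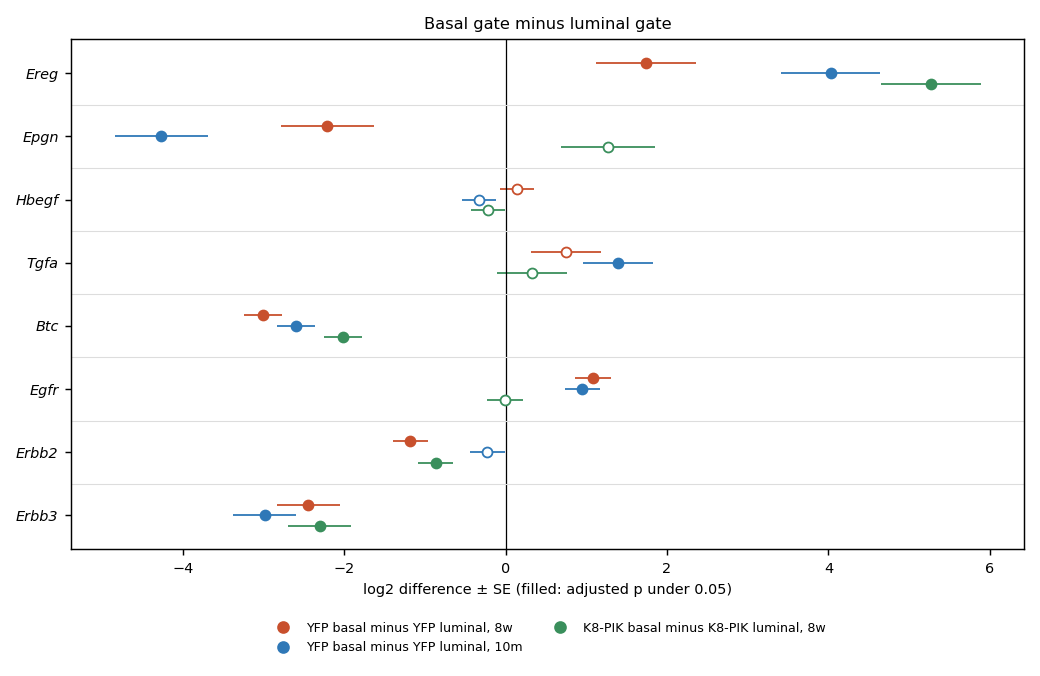
Log2 difference of the basal gate minus the luminal gate (horizontal axis, points with SE bars) for 8 genes in YFP cells at 8 weeks and 10 months and in K8-PIK cells at 8 weeks; filled points have an adjusted p under 0.05. Btc and Erbb3 lie left of 0 in all comparisons shown, and Epgn is at -4.27 in YFP cells at 10 months and at 1.27 in K8-PIK cells.

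In K8-PIK mice, the basal gate holds cells marked through a luminal Cre. Against K8-PIK luminal cells they were higher in Ereg and lower in Erbb3, Btc and Erbb2, which is 4 calls of 8 where 8.9% of all genes were called higher and 10.6% lower. Ereg was higher by 5.27 ± 0.62 (adjusted p = 0.000113), at least 19-fold. Erbb3 had a difference of -2.31 ± 0.39 (adjusted p = 0.00143), Btc of -2.01 ± 0.23 (adjusted p = 0.000107), at least 3.57-fold lower, and Erbb2 of -0.87 ± 0.22 (adjusted p = 0.0136), the last lost without K8-PIK luminal replicate 1 (-0.74, adjusted p = 0.0888) or K8-PIK basal replicate 1 (-0.77, adjusted p = 0.115). Epgn did not follow them: it differed by 1.27 ± 0.58 (adjusted p = 0.153), and by 2.30 (adjusted p = 0.0117) without K8-PIK luminal replicate 1. Egfr had a difference of -0.01 ± 0.22 between the gates (adjusted p = 0.977). The median difference was -0.12 over the 8 genes and -0.04 over all genes.

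Against YFP basal cells at 8 weeks, K8-PIK basal cells differed in 1 of 8 genes, Ereg, where 0.335% of all genes were called higher and 0.0837% lower. Ereg was higher by 3.61 ± 0.62 (adjusted p = 0.0352), at least 9.96-fold, counting the 1 YFP array below background at its 40th percentile. Epgn differed by 2.50 ± 0.58 without passing (adjusted p = 0.0847). Endothelial markers were lower in these K8-PIK arrays (5.93 and 5.85) than in the YFP basal arrays (6.45 and 7.38). With their mean as a covariate the Ereg difference was 3.65 (adjusted p = 0.131). The Ereg call was also lost without YFP basal replicate 2 (2.43, adjusted p = 0.133), K8-PIK basal replicate 1 (3.59, adjusted p = 0.131) or K8-PIK basal replicate 2 (3.63, adjusted p = 0.207), or with only these groups in the fit (adjusted p = 0.182). Against YFP luminal cells at 8 weeks, whose Cre they share, K8-PIK basal cells were called for 5 of 8 genes, where 11.6% of all genes were called higher and 17.2% lower. Ereg was higher by 5.35 ± 0.62 (adjusted p = 6.28e-05), at least 18.9-fold, and Egfr by 1.17 ± 0.22 (adjusted p = 0.00188), while Btc had a difference of -3.23 ± 0.23 (adjusted p = 2.85e-06), at least 8.28-fold lower, Erbb3 of -3.16 ± 0.39 (adjusted p = 0.000105) and Erbb2 of -1.16 ± 0.22 (adjusted p = 0.00178). All 5 calls held with each of the 4 arrays left out. Tgfa differed by 1.00 from YFP luminal cells without passing. It passed with each of its other probe sets (1.29 and 1.35, adjusted p = 0.0398 and 0.0283) and with the mean of its probe sets (1.21, adjusted p = 0.0347). With only these groups in the fit it passed as well (adjusted p = 0.0238). These comparisons share K8-PIK basal arrays and are not independent.

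Within the luminal gate at 8 weeks, K8-PIK cells were called for 1 gene, Egfr, which was higher by 1.18 ± 0.22 (adjusted p = 0.0444) than in YFP luminal cells, a 2.27-fold difference. Few genes of the array were called there, 0.144% higher and 0.205% lower. The Egfr call was lost without any 1 of the 4 arrays: without YFP luminal replicate 1 (1.32, adjusted p = 0.0961), YFP luminal replicate 2 (1.04, adjusted p = 0.337), K8-PIK luminal replicate 1 (1.21, adjusted p = 0.152) or K8-PIK luminal replicate 2 (1.15, adjusted p = 0.126). It had an adjusted p of 0.69 in the fit of all 28 arrays, and the 5 other Egfr probe sets gave differences of 0.34 to 1.34 that missed the threshold. Btc differed by -1.21 ± 0.23 (adjusted p = 0.0546). It passed with its other probe set (-1.14, adjusted p = 0.0319), with the mean of its probe sets (-1.18, adjusted p = 0.015) and with a trended robust prior (adjusted p = 0.0432). Hbegf differed by 0.64 ± 0.21 (adjusted p = 0.258).

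In K5-PIK mice at 10 months, the basal gate holds cells of the lineage in which Cre acted. Against YFP basal cells they were lower in Ereg, by a difference of -3.42 ± 0.62 (adjusted p = 0.00572), and in Erbb2, by -0.68 ± 0.22 (adjusted p = 0.0499), where 8.28% of all genes were called higher and 8.02% lower. Ereg was thus lower in K5-PIK basal cells and higher in K8-PIK basal cells than in the YFP basal cells of the same time, and as 1 of the 2 K5-PIK arrays was below background, Ereg was at least 6.99-fold lower in K5-PIK basal cells. The endothelial marker mean was lower too in the K5-PIK basal arrays (5.52 and 4.53, against 6.16 and 7.20 in YFP basal cells), and with it as a covariate Ereg had a difference of -3.35 (adjusted p = 0.0739) and Erbb2 one of -0.73 (adjusted p = 0.224). Ereg missed the threshold without K5-PIK basal replicate 2 (-2.50, adjusted p = 0.0572), and Erbb2 missed it without any 1 of the 4 arrays, with differences of -0.57 and -0.79 without YFP basal replicates 1 and 2 (adjusted p = 0.257 and 0.087) and of -0.82 and -0.54 without K5-PIK basal replicates 1 and 2 (adjusted p = 0.0589 and 0.262). Tgfa differed by -1.15 ± 0.43 (adjusted p = 0.084), and by -1.82 (adjusted p = 0.021) without K5-PIK basal replicate 1.

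K5-PIK luminal cells, marked through a basal Cre, had luminal-gate levels of Erbb3 and the lowest Epgn of all groups. Against K5-PIK basal cells, 4 of 8 genes were called, where 10.4% of all genes were called higher and 13.2% lower. Erbb3 was higher by 2.86 ± 0.39 (adjusted p = 0.000184), Btc by 1.10 ± 0.23 (adjusted p = 0.00422), at least 1.64-fold, and Erbb2 by 0.98 ± 0.22 (adjusted p = 0.0053), and Egfr had a difference of -0.91 ± 0.22 (adjusted p = 0.00928). Epgn differed by -0.83 ± 0.58 (adjusted p = 0.346). The Egfr call was lost without K5-PIK luminal replicate 2 (-0.58, adjusted p = 0.0856) or K5-PIK basal replicate 1 (-0.85, adjusted p = 0.0567), and 1 of the 5 other Egfr probe sets gave the opposite sign (0.63, adjusted p = 0.166). The other Btc probe set, above background on 7 of 28 arrays, gave 0.14 (adjusted p = 0.669). With only these groups in the fit, Btc, Erbb2 and Egfr missed the threshold (adjusted p = 0.0601, 0.0797 and 0.107).

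Against YFP luminal cells at 10 months, K5-PIK luminal cells were lower in Epgn, by -4.74 ± 0.58 (adjusted p = 0.00121), a 26.8-fold difference, and in Btc, by -1.31 ± 0.23 (adjusted p = 0.00836), where 2.08% of all genes were called higher and 4.32% lower. The Epgn call held without each of the 4 arrays, while Btc missed the threshold without YFP luminal replicate 1 (-1.33, adjusted p = 0.0659), YFP luminal replicate 2 (-1.30, adjusted p = 0.0745) or K5-PIK luminal replicate 1 (-1.10, adjusted p = 0.0515). Erbb3, with -0.15 ± 0.39 (adjusted p = 0.856), and Erbb2, with 0.07 ± 0.22 (adjusted p = 0.876), did not pass, and Egfr, with 0.54 ± 0.22 (adjusted p = 0.167), passed only without K5-PIK luminal replicate 2 (0.87, adjusted p = 0.0293). Against YFP basal cells, from mice of the same Cre, Erbb3 was higher by 2.83 ± 0.39 (adjusted p = 0.000148) and Btc by 1.29 ± 0.23 (adjusted p = 0.00108), at least 1.63-fold, whereas Ereg had a difference of -4.44 ± 0.62 (adjusted p = 0.000161), at least 8.51-fold lower, and Tgfa one of -1.79 ± 0.43 (adjusted p = 0.0062), where 18.5% of all genes were called higher and 18.8% lower. Tgfa missed the threshold without YFP basal replicate 2 (-1.56, adjusted p = 0.0501) or K5-PIK luminal replicate 2 (-1.40, adjusted p = 0.0607), and once the endothelial mean was a covariate (-1.30, adjusted p = 0.218). The other Btc probe set gave 0.25 (adjusted p = 0.338), and Egfr, with -0.41 ± 0.22 (adjusted p = 0.168), did not pass. It passed without K5-PIK luminal replicate 1 (-0.73, adjusted p = 0.0214), with the mean of its probe sets (-0.69, adjusted p = 0.0404) and with 3 of its 5 other probe sets (-1.49, -1.28 and -1.20, adjusted p = 0.00726, 0.00355 and 0.00781). Both comparisons share the K5-PIK luminal arrays.

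**Figure D3:**
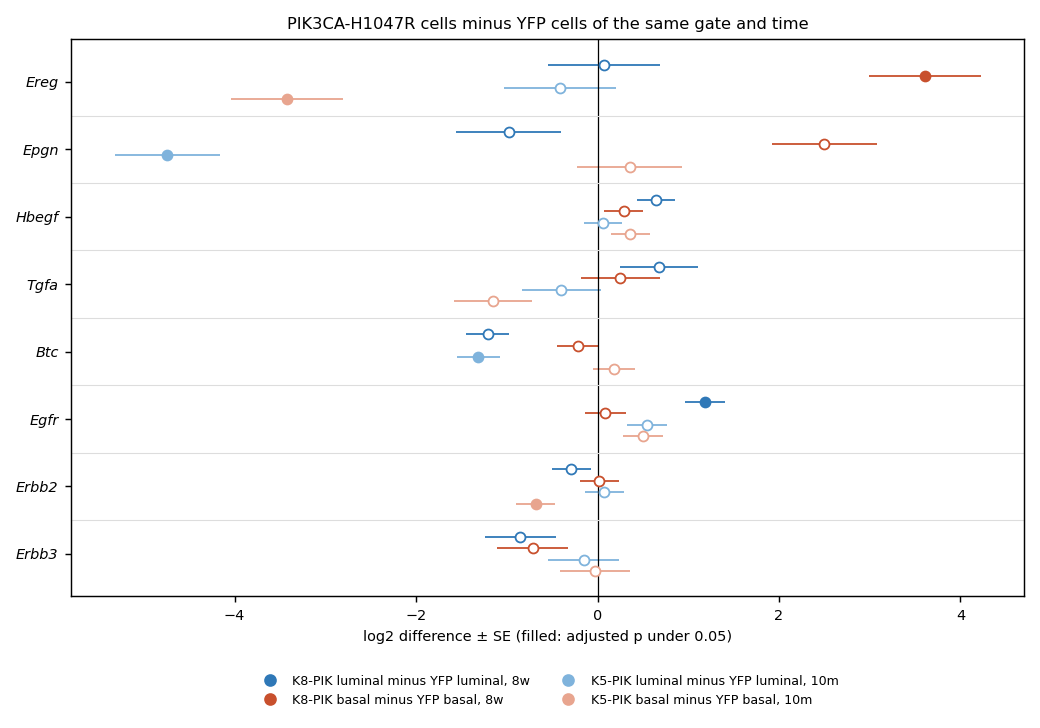
Log2 difference of PIK cells minus YFP cells of the same gate and time (horizontal axis, points with SE bars) for 8 genes; filled points have an adjusted p under 0.05. Ereg lies at 3.61 in the K8-PIK basal comparison and at -3.42 in the K5-PIK basal comparison, and Epgn at -4.74 in the K5-PIK luminal comparison.

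Whether the gaps differed was tested by differences of differences. The PIK gates of a gap share a Cre, while the YFP gates came from different Cre drivers. Oncogene and driver therefore cannot be told apart in the tests of lineage gaps. The basal-minus-luminal gap at 10 months differed between K5-PIK and YFP cells for Epgn, by 5.10 ± 0.82 (adjusted p = 0.00844), and for Btc, by 1.5 ± 0.33 (adjusted p = 0.0245), where 5.19% of all genes had a called positive and 1.96% a called negative difference. Epgn missed the threshold without YFP luminal replicate 2 (4.91, adjusted p = 0.0527), and Btc without either YFP luminal array (1.51 and 1.48, adjusted p = 0.0735 and 0.101), YFP basal replicate 1 (1.49, adjusted p = 0.0967), K5-PIK luminal replicate 1 (1.28, adjusted p = 0.0814) or K5-PIK basal replicate 1 (1.26, adjusted p = 0.0537), or with the endothelial covariate (1.61, adjusted p = 0.0515). For Ereg the difference was -3.01 ± 0.87 (adjusted p = 0.0556), and it passed without K5-PIK basal replicate 1 (-3.93, adjusted p = 0.0255). At 8 weeks, between K8-PIK and YFP cells, the same test gave 3.54 ± 0.87 for Ereg (adjusted p = 0.204) and 3.48 ± 0.82 for Epgn (adjusted p = 0.175), neither called, where 0.0076% of all genes were called positive and 0% negative. Ereg was below background on all luminal arrays of both tests, so its values there are not exact. Btc was below background on all basal arrays of the test at 10 months, so its difference there is not exact either.

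The change with the oncogene in basal cells at 10 months, set against that in luminal cells at 8 weeks, differed for Ereg by -3.49 ± 0.87 (adjusted p = 0.0297) and for Btc by 1.39 ± 0.33 (adjusted p = 0.0254), where 6.24% of all genes were called positive and 4.81% negative. For Ereg 5 of the 8 arrays, among them all 4 luminal arrays, were below background, so the luminal part has no measured size. With each array at no less than its 40th percentile the Ereg value was -2.80. Btc was below background on all basal arrays of this test, so its basal part has no measured size. Each of these calls was lost on leaving out 7 of the 8 arrays, 1 at a time, and with the endothelial covariate (-3.43 and 1.54, adjusted p = 0.11 and 0.0715). Ereg kept its call only without K5-PIK basal replicate 1 and otherwise lay between -3.71 and -2.57 (adjusted p = 0.0566 to 0.105), and Btc only without K5-PIK basal replicate 2 and otherwise between 1.16 and 1.61 (adjusted p = 0.0534 to 0.0834). A further comparison, added after the opposed signs of Ereg had been seen, set the change in K8-PIK basal cells at 8 weeks against that in K5-PIK basal cells at 10 months. It differed by 7.03 ± 0.87 for Ereg (adjusted p = 0.00147), the 1 gene called of 8, where 8.27% of all genes were called positive and 5.45% negative. Of the 8 arrays, 1 YFP array of 8 weeks (3.36) and 1 K5-PIK array (2.71) were below background, and the difference was at least 6.12 with both counted at their 40th percentile. The call held without each of the 8 arrays, with differences from 5.85 to 8.21. Cre driver and time differ together in both comparisons, with the gate as well in the first, and cannot be told apart. In the comparison added, K8-PIK basal cells came from K8CREERT2 mice and their YFP basal cells from K5CREERT2 mice. Oncogene and driver therefore cannot be told apart in that change.

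Tumours were compared with each other and with YFP cells of the lineage in which Cre acted, the mean of both times. K8-PIK-p53 tumours were called against K8-PIK tumours for 1 of 8 genes, Ereg, where 0.227% of all genes were called higher and 0.0982% lower. The 2 K8-PIK-p53 tumours had 8.74 and 7.40, against 2.55 to 3.68 in the 7 K8-PIK tumours, a difference of 4.97 ± 0.39 (adjusted p = 0.000123) and at least 17.4-fold. Left out 1 at a time, the 9 arrays gave differences of 4.30 to 5.64, under the filter set on all tumours. Among tumours, Ereg was above background only on the 2 K8-PIK-p53 arrays. It thus passed the filter only through the group where it was high, and with either of these arrays left out it would not have passed. It was also called without the filter. The SD was 0.95 in K8-PIK-p53, 0.45 in K8-PIK and 0.42 in K5-PIK tumours, and the SE pools them. Epgn differed by 1.76 ± 0.75 (adjusted p = 0.226), and Erbb3 by -1.27 ± 0.55 (adjusted p = 0.229), or -1.61 (adjusted p = 0.00358) without K8-PIK tumour replicate 3. Fibroblast markers, 6 of 7 of them above background in both K8-PIK-p53 tumours and 3 to 6 in K8-PIK tumours, had means of 7.72 and 8.29 in K8-PIK-p53 tumours, against 5.08 to 8.32 in K8-PIK tumours, and their part in these differences was not tested.

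K5-PIK and K8-PIK tumours, of basal and luminal Cre origin, showed no call among the 8 genes, and limma called 0% of all genes higher and 0% lower, with 1225 genes at an unadjusted p under 0.05. The differences were -0.21 ± 0.33 for Ereg (adjusted p = 0.843), -0.03 ± 0.64 for Epgn (0.99), 0.03 ± 0.34 for Btc (0.982), -0.46 ± 0.28 for Egfr (0.623), 0.10 ± 0.29 for Erbb2 (0.918) and 0.79 ± 0.47 for Erbb3 (0.611).

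Against YFP luminal cells, K8-PIK tumours were lower in Epgn, by -2.52 ± 0.53 (adjusted p = 0.00514), and in Btc, by -1.36 ± 0.26 (adjusted p = 0.00252), where 4.47% of all genes were called higher and 6.13% lower. Both calls held without each of the 11 arrays. Egfr differed by 0.61 ± 0.21 (adjusted p = 0.0732) and passed without K8-PIK tumour replicate 1 (0.74, adjusted p = 0.0198) or replicate 4 (0.70, adjusted p = 0.032). Basal markers averaged 6.82 to 9.72 in K8-PIK tumours, against 5.91 to 7.04 in YFP luminal cells, and luminal markers 7.71 to 9.92 against 9.80 to 9.92. Fibroblast markers averaged 5.08 to 8.32 against 5.0 to 6.08, with 3 to 6 of 7 above background in the tumours and 3 to 5 in YFP luminal cells. Their part in the lower Epgn and Btc was not tested. K8-PIK-p53 tumours were higher in Ereg than YFP luminal cells, by 5.16 ± 0.52 (adjusted p = 5.43e-06), at least 17.7-fold, and lower in Erbb3, by -2.19 ± 0.52 (adjusted p = 0.00523), and Btc, by -1.48 ± 0.35 (adjusted p = 0.00569), where 12.1% of all genes were called higher and 11.8% lower. The Btc call was lost without K8-PIK-p53 tumour replicate 2 (-1.02, adjusted p = 0.123) and the Erbb3 call without replicate 1 (-2.05, adjusted p = 0.0619). Luminal markers averaged 7.57 and 8.45 in K8-PIK-p53 tumours, against 9.80 to 9.92 in YFP luminal cells, and their part in the lower Erbb3 was not tested.

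K5-PIK tumours had higher Erbb3 and Btc than YFP basal cells, although Cre had acted in basal cells. Against YFP basal cells, Erbb3 was higher by 2.60 ± 0.46 (adjusted p = 0.00035) and Btc by 1.47 ± 0.31 (adjusted p = 0.00146), and Ereg differed by -2.90 ± 0.46 (adjusted p = 0.000146), Tgfa by -1.97 ± 0.46 (adjusted p = 0.00325) and Egfr by -0.87 ± 0.26 (adjusted p = 0.0166). These are 5 calls of 8, where 15.5% of all genes were called higher and 14.5% lower. Ereg was below background on all K5-PIK tumours and on YFP basal replicate 2 of 8 weeks, so its fold has no firm bound. Egfr missed the threshold without YFP basal replicate 2 of 8 weeks (-0.78, adjusted p = 0.0542) or K5-PIK tumour replicate 3 (-0.79, adjusted p = 0.0644), and with the endothelial covariate (-0.73, adjusted p = 0.162), as did Tgfa (-1.43, adjusted p = 0.108), and the other Btc probe set gave 0.44 (adjusted p = 0.112). Of the 5 other Egfr probe sets, 3 kept the call, and those that lost it gave -0.38 and -0.19 (adjusted p = 0.268 and 0.573). Luminal markers averaged 9.49, 9.63 and 9.78 in K5-PIK tumours, against 6.65 to 8.16 in YFP basal cells.

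Against PIK cells without a tumour label, K8-PIK tumours gave no call relative to K8-PIK luminal cells, where 0.834% of all genes were called higher and 1.66% lower, and the widest difference was -1.70 ± 0.49 for Tgfa (adjusted p = 0.0652), which passed without K8-PIK tumour replicate 2 (-1.92, adjusted p = 0.0302). K5-PIK tumours relative to K5-PIK basal cells gave 4 calls of 8, where 7.88% of all genes were called higher and 9.4% lower. Erbb3 was higher by 3.40 ± 0.54 (adjusted p = 0.000333), Btc by 1.58 ± 0.37 (adjusted p = 0.00639), at least 2.29-fold, and Erbb2 by 0.99 ± 0.31 (adjusted p = 0.0331), and Egfr had a difference of -1.34 ± 0.31 (adjusted p = 0.00604). Erbb2 missed the threshold without K5-PIK basal replicate 1 (1.13, adjusted p = 0.0972), K5-PIK basal replicate 2 (0.86, adjusted p = 0.203), K5-PIK tumour replicate 2 (0.97, adjusted p = 0.0751) or K5-PIK tumour replicate 3 (0.93, adjusted p = 0.0822), Egfr without K5-PIK basal replicate 1 (-1.28, adjusted p = 0.0627) and Btc without K5-PIK basal replicate 2 (1.34, adjusted p = 0.0838) or with its other probe set (0.57, adjusted p = 0.115). For Egfr, 3 of its 5 other probe sets kept the call, and those that lost it gave -0.69 and -0.03 (adjusted p = 0.0912 and 0.96). The tumour comparisons share tumour and YFP arrays.

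**Figure D4:**
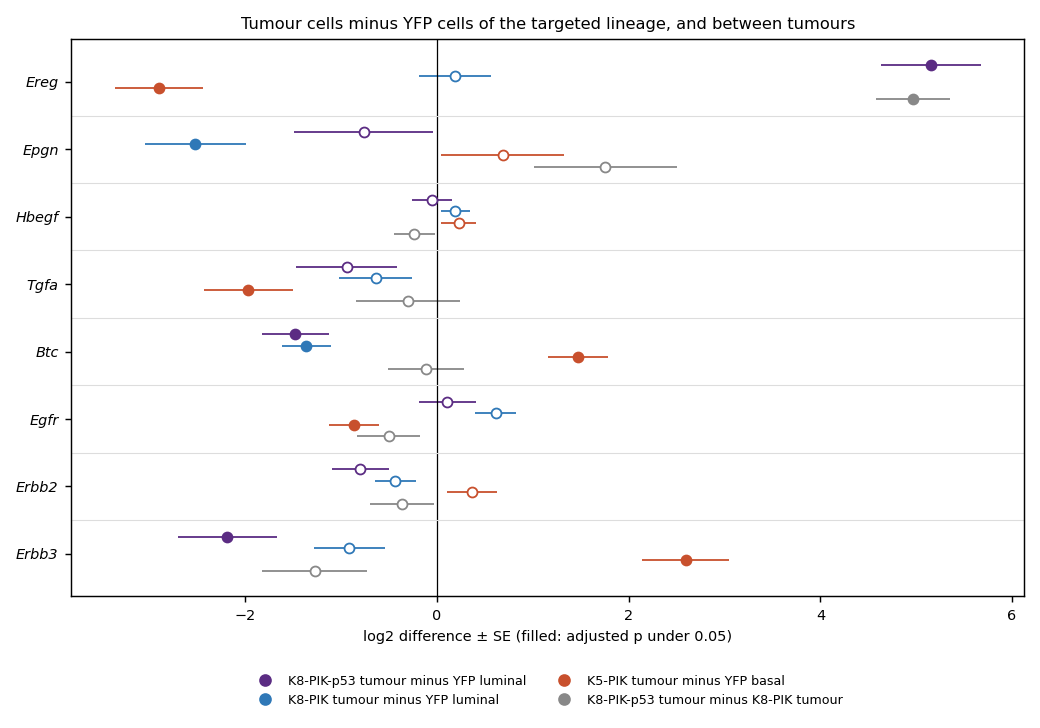
Log2 difference (horizontal axis, points with SE bars) for 8 genes in tumours minus YFP cells of the lineage in which Cre acted, and in K8-PIK-p53 minus K8-PIK tumours; filled points have an adjusted p under 0.05. Ereg lies at 5.16 and 4.97 in the comparisons of K8-PIK-p53 tumours and at -2.90 in K5-PIK tumours.

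The other genes of the pathway were taken from 5 lists. Of 4 tested genes in the list of ERBB4 and neuregulins, YFP basal cells at 10 months, against YFP luminal cells, had 1 higher and 2 lower, where 17.6% of all genes were called higher and 25.8% lower. Nrg1, a ligand of ERBB3 and ERBB4, was higher by 3.55 ± 0.47 (adjusted p = 0.000102), and Erbb4, with -1.21 ± 0.29 (adjusted p = 0.00518), and Nrg4, a ligand of ERBB4, with -0.93 ± 0.27 (adjusted p = 0.0153), were lower. Nrg1 was also higher in K8-PIK basal than in K8-PIK luminal cells, by 3.55 ± 0.47 (adjusted p = 0.000256), and lower in K5-PIK than in YFP basal cells, by -1.57 ± 0.47 (adjusted p = 0.0388), the direction of Ereg in each of these comparisons. Of 8 shedding genes, 2 were higher and 2 lower in YFP basal cells at 10 months, with the proteases Adam12 and Adam19 higher by 3.38 ± 0.39 (adjusted p = 3.94e-05) and 2.71 ± 0.26 (adjusted p = 9.42e-06), and Adam10, which releases EGF and betacellulin, at -1.75 ± 0.40 (adjusted p = 0.00403). These counts are near the shares of all genes. In K5-PIK basal cells, 3 of the 8 were lower and 0 higher than in YFP basal cells, against 8.02% and 8.28% of all genes, Adam19 by -2.26 ± 0.26 (adjusted p = 0.00134).

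Of 12 receptor inhibitors and turnover genes, 4 were higher and 0 lower in YFP basal cells at both times, where 10.4% of all genes were called higher and 19.9% lower at 8 weeks and 17.6% and 25.8% at 10 months. At 10 months Lrig3 was higher by 2.70 ± 0.43 (adjusted p = 0.00038), Cblb, a ubiquitin ligase of the receptors, by 1.86 ± 0.35 (adjusted p = 0.00118) and Lrig1, which lowers ERBB receptor levels, by 1.25 ± 0.24 (adjusted p = 0.00131). In K5-PIK luminal cells, against K5-PIK basal cells, 4 of the 12 were lower and 1 higher, against 13.2% and 10.4% of all genes, among them Errfi1, an inhibitor of EGFR kinase, at -0.92 ± 0.18 (adjusted p = 0.00276). Of 13 ERK targets and feedback genes, 8 were higher and 1 lower in YFP basal than YFP luminal cells at 10 months, 5 higher and 0 lower in K8-PIK basal than K8-PIK luminal cells, and 7 lower and 1 higher in K5-PIK luminal than K5-PIK basal cells. Of all genes, 17.6% were called higher and 25.8% lower in the first of these comparisons, 8.9% and 10.6% in the second, and 13.2% lower and 10.4% higher in the last. The ERK phosphatase Dusp6 was higher by 1.84 ± 0.23 (adjusted p = 6.65e-05) and Dusp4 was the 1 lower gene, at -2.14 ± 0.32 (adjusted p = 0.00028), in YFP basal cells at 10 months. The medians of this list in those 3 comparisons were 0.81, 0.50 and -0.66, against -0.12, -0.04 and -0.01 over all genes. Of 12 adaptors and kinases, 3 were higher and 2 lower in YFP basal cells at 10 months, with the adaptor Gab2 at -1.49 ± 0.37 (adjusted p = 0.00585) and the kinase Map2k1 higher by 1.04 ± 0.17 (adjusted p = 0.000498), counts again near the shares of all genes.

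With the oncogene in the luminal gate at 8 weeks, limma called 0 genes of the 5 lists, where 0.144% of all genes were called higher and 0.205% lower. In K8-PIK basal against YFP basal cells it called 0 as well, where 0.335% of all genes were called higher and 0.0837% lower. With so few calls on the array, these counts say little about the lists. In K8-PIK-p53 against K8-PIK tumours, where 0.227% were called higher and 0.0982% lower, 1 was called, Ptpn1, a tyrosine phosphatase of receptor kinases, at -1.08 ± 0.17 (adjusted p = 0.0291). K8-PIK tumours had 2 of 13 ERK target genes higher and 1 lower than YFP luminal cells, against 4.47% and 6.13% of all genes, namely Etv5 by 1.40 ± 0.20 (adjusted p = 0.000383), Dusp6 by 1.08 ± 0.21 (adjusted p = 0.00337) and Fosl1 at -0.66 ± 0.18 (adjusted p = 0.0235).

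Across the 16 sorted arrays, Btc, Erbb2 and Erbb3 varied together, with Pearson correlations of 0.92 for Btc and Erbb3, 0.853 for Btc and Erbb2 and 0.85 for Erbb2 and Erbb3. Egfr ran against them there, at -0.742 with Btc, -0.634 with Erbb2 and -0.725 with Erbb3. Across the 12 tumours Egfr did not, with 0.434 for Btc, 0.668 for Erbb2 and 0.237 for Erbb3. In the tumours the correlations were 0.0481 for Btc and Erbb3, 0.523 for Btc and Erbb2 and 0.606 for Erbb2 and Erbb3. Erbb3 followed the mean of the luminal markers closely, at 0.972 over the 16 sorted arrays and 0.895 over the 12 tumours, whereas Btc did so at 0.891 in the sorted cells and 0.119 in the tumours. Epgn and Ereg had a correlation of 0.0453 across sorted arrays and 0.559 across tumours, and Epgn had -0.882 with the basal marker mean across tumours. These points share groups and gates and are given as a description.

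**Figure D5:**
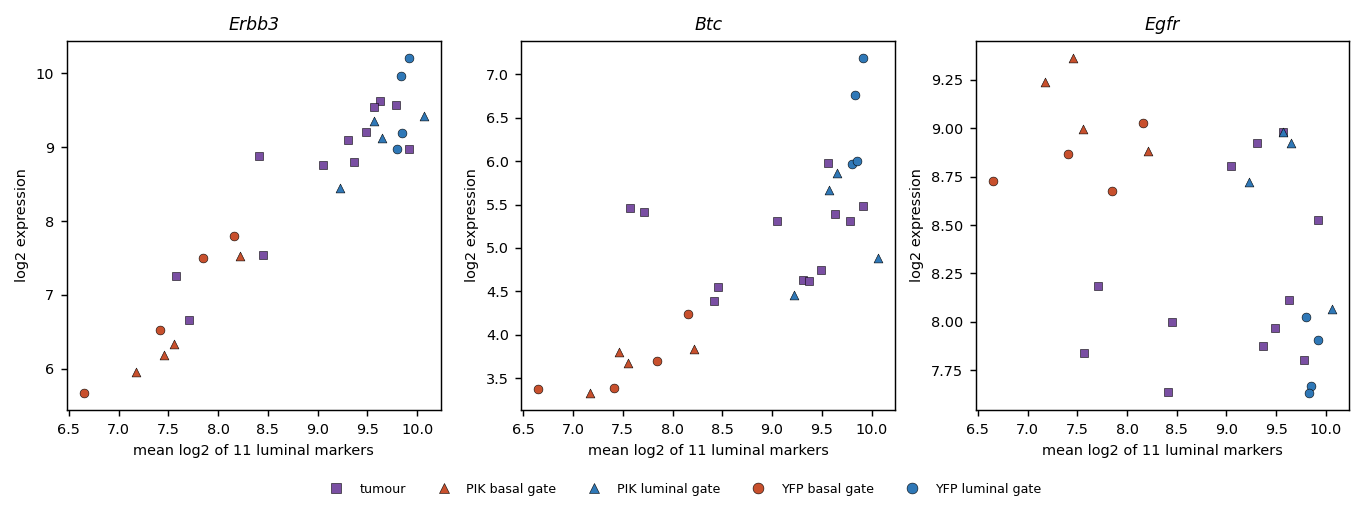
Log2 expression of Erbb3, Btc and Egfr (vertical axes, each on its own range) against the mean log2 of 11 luminal markers (horizontal axis) on 28 arrays; symbols and colours mark tumours, PIK and YFP cells and the gates. Erbb3 follows the markers in sorted cells and tumours (0.972 and 0.895), and Btc in sorted cells (0.891) but less in tumours (0.119).

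The genes most like each of the 5 genes with group means spanning over 2 were found by Pearson correlation over the 28 arrays, which share these groups. They were Rrn3 (0.886), Dusp9 (0.879) and Abcb1b (0.873) for Ereg, and Slc25a24 (0.836), Pop7 (0.821) and Smim15 (0.809) for Epgn. For Tgfa they were Lpgat1 (0.925), Smg8 (0.896) and Lrrc8a (0.866), and for Btc Cfap126 (0.899), Fbxo6 (0.889) and Casp9 (0.889). For Erbb3 the correlations were the highest, with Rab25 (0.972), Nectin4 (0.971) and Tmprss13 (0.968). The other probe sets had correlations with those used of 0.983 for Erbb3, 0.93 for Hbegf and 0.898 for Btc. They had 0.875 and 0.939 for Tgfa and 0.814 to 0.942 for 4 of 5 Egfr probe sets. The remaining Egfr probe set had 0.267. In YFP basal against luminal cells it gave 0.21 (adjusted p = 0.649) at 8 weeks and -0.36 (adjusted p = 0.363) at 10 months. Calls were also lost with correlated probe sets. In the same comparison, an Egfr probe set gave 0.84 (adjusted p = 0.104) at 8 weeks. At 10 months another Egfr probe set gave 0.53 (adjusted p = 0.097) and a Tgfa probe set 0.89 (adjusted p = 0.112).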

How the data were processed

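The deposited files hold log2 intensities of 28 single-channel Affymetrix arrays, each with 45141 probe sets. Per the submitters' processing notes they were made in R 2.14.0, and background correction and normalization are not given in the sources used here. Array medians were 4.40 to 4.50, so no further scaling was applied. Of 29449 annotated probe sets, 28898 with 1 symbol gave 17097 genes. Genes above the 40th percentile of their array on 2 arrays of a fit were tested by fitting a mean for each group (limma 3.58.1, R 4.3.3), with Benjamini-Hochberg adjustment at 0.05. Sorted cells (16 arrays, 13150 genes), tumours (12 arrays, 13244 genes) and tumours with sorted cells (28 arrays, 13663 genes) were fitted separately, and the code was tested on simulated data. The members and lists were chosen with earlier results of these data known. All 9 members are named, and at most the 3 most changed called genes of each pathway list. One comparison, of the oncogene's effect in the 2 basal groups, was added after seeing the data. Alternatives were the arrays fitted, the filter, the probe set, the variance prior, quantile scaling, a replicate block, the endothelial mean as a covariate and leaving out each array. The floxed gene was not analysed here.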

Additional observations from a re-analysis of the deposited data

Results flagged for a closer look

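In K8-PIK tumours, Erbb3 of replicate 3 lay at 6.66, apart from the other 6 tumours at 8.76 to 9.54. Its gap to the nearest tumour was 0.731 of the group's range, beyond Dixon's critical value for 7 samples. All 9 genes were checked in this way in this group, and only Erbb3 was flagged. For each gene checked, chance alone flags about 1 in 20 groups, so a flag among 9 genes is less rare than that. The luminal marker mean of that array was 7.71, the lowest of the 7, and its part in the low Erbb3 was not tested.

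The gap between basal and luminal cells differed between K5-PIK and YFP mice at 10 months for Epgn by 5.1 and for Btc by 1.5, on the log2 scale. The YFP gates of this gap came from different Cre drivers, so oncogene and driver cannot be told apart there. The effect of the oncogene differed between basal cells at 10 months and luminal cells at 8 weeks for Ereg by -3.49 and for Btc by 1.39, with Ereg below background on 5 of the 8 arrays. Btc was below background on all basal arrays of this test and of the gap test, so its differences are not exact. The effect in the basal gate differed between K8-PIK cells at 8 weeks and K5-PIK cells at 10 months for Ereg by 7.03, or at least 6.12 with 2 arrays below background counted at their 40th percentile, a comparison added after seeing the data. Driver and time differ together in the last 2 tests, with the gate as well in the first of them, and cannot be told apart. K8-PIK basal cells and the YFP basal cells set against them also came from different Cre drivers, so oncogene and driver cannot be told apart there.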

How the results depend on the processing

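Of 2896 alternative values of 192 differences, 2604 kept direction and side of the threshold, 121 lost a call, 39 gained one, 130 changed sign without a call in either setting and 2 called values changed sign. These were Egfr with 1 of its other probe sets, at -0.36 in YFP basal minus luminal cells at 10 months and at 0.63 in K5-PIK luminal minus basal cells.

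The number of members called moved as follows. With the fit of all 28 arrays it was 0, against 1 in the main fit, for K8-PIK minus YFP luminal cells, 1 against 2 for K5-PIK minus YFP in the basal and in the luminal gate, for the K5-PIK lineage gap and for the oncogene effect in basal minus luminal cells, and 1 against 4 for K5-PIK luminal minus basal cells. With only the groups compared it was 0 against 1 for K8-PIK minus YFP in the luminal and in the basal gate, 1 against 2 for K5-PIK minus YFP in the basal and in the luminal gate, 1 against 4 for K5-PIK luminal minus basal cells, 2 against 1 for the oncogene effect in the basal gate and 5 against 3 for K8-PIK-p53 tumours minus YFP luminal cells. Without the filter it was 0 against 1 for K8-PIK minus YFP luminal and 1 against 2 for K5-PIK minus YFP basal cells, with a trended robust prior 2 against 1 and 1 against 2 in these, and with quantile normalization 1 against 2 for K5-PIK minus YFP basal cells and 1 against 0 for age in YFP basal cells. With the endothelial mean as a covariate it was 3 against 6 for YFP basal minus luminal cells at 8 weeks, 0 against 1 for K8-PIK minus YFP basal cells, 0 against 2 for K5-PIK minus YFP basal cells and for the oncogene effect in basal minus luminal cells, 1 against 2 for the K5-PIK lineage gap and 3 against 5 for K5-PIK tumours minus YFP basal cells.

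Replicate numbers did not pair the arrays, as correlations of same-numbered deviations ran from -0.0775 to 0.386 over 28 pairs of the sorted groups and from -0.0917 to 0.211 over 7 pairs of tumour arrays. With a replicate block, the number was 2 against 0 for age in YFP basal cells and for K8-PIK tumours minus K8-PIK luminal cells, and 0 against 1 for K8-PIK-p53 minus K8-PIK tumours, where Ereg differed by 5.06 (adjusted p = 0.0835).

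Leaving out 1 array at a time gave 4 to 5 members against 6 for YFP basal minus luminal cells at 8 weeks and 4 to 6 against 6 at 10 months, 0 to 0 against 1 for K8-PIK minus YFP luminal cells, 0 to 1 against 1 for K8-PIK minus YFP basal cells, 0 to 2 against 2 for K5-PIK minus YFP basal cells, 1 to 3 against 2 for K5-PIK minus YFP luminal cells, 0 to 1 against 0 for age in YFP basal cells, 0 to 2 against 2 for the K5-PIK lineage gap and for the oncogene effect in basal minus luminal cells, 1 to 2 against 1 for that in the basal gate and for K8-PIK-p53 minus K8-PIK tumours, 0 to 1 against 0 for K8-PIK tumours minus K8-PIK luminal cells and 2 to 4 against 4 for K5-PIK tumours minus K5-PIK basal cells. Over all genes, calls ran from 8 (without K8-PIK tumour replicate 7) to 1029 (without replicate 3) for K8-PIK-p53 minus K8-PIK tumours, from 0 (without K8-PIK basal replicate 2) to 46 for K8-PIK minus YFP basal cells, and from 6 (without YFP luminal replicate 2) to 63 for K8-PIK minus YFP luminal cells. They ran from 346 (without YFP basal replicate 1) to 1961 for K5-PIK minus YFP basal cells and from 120 (without YFP luminal replicate 2) to 1344 for K5-PIK minus YFP luminal cells. The range was 66 (without YFP luminal replicate 2) to 2366 (without K5-PIK luminal replicate 2) for the K5-PIK lineage gap. It was 167 to 1531 for the oncogene effect in basal minus luminal cells and 518 to 2081 for that in the basal gate. For age it was 1 to 109 in YFP basal cells and 0 to 8 in YFP luminal cells. For tumours against sorted cells, calls ran from 0 (without K8-PIK luminal replicate 2) to 494 for K8-PIK tumours minus K8-PIK luminal cells. They ran from 457 to 1786 for K8-PIK tumours and from 1373 to 2676 for K8-PIK-p53 tumours minus YFP luminal cells, and from 937 to 1976 for K5-PIK tumours minus K5-PIK basal cells. Calls ran from 1150 to 1941 for K8-PIK basal minus K8-PIK luminal cells and from 1942 to 2985 for K8-PIK basal minus YFP luminal cells. Groups of 2 arrays limit the precision, and a lone array left in a group is assumed to vary like the others. Ereg and Btc values below background are not exact.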
